A study of Mus musculus with 11 samples.

Results

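The 11 RNA-seq libraries of isolated mouse glomeruli carried titles of 2 forms, and the comparison made here is between these forms. In 6 libraries the title ended in a group name with a number (the group-tag libraries), and in 5 it ended in an S number (the S-number libraries). Both forms occurred in every group. The db/m vehicle group had 2 group-tag and 2 S-number libraries, db/db vehicle had 2 and 2, and db/db puerarin had 2 and 1. The 11 libraries are the whole series.

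The db/db mice carry 2 copies of a leptin receptor mutation and develop obesity, type 2 diabetes and kidney damage. They were gavaged with vehicle (5% DMSO) or with puerarin, an isoflavone glycoside, in the same vehicle at a daily dose of 20 mg/kg. Heterozygous db/m littermates on vehicle served as non-diabetic controls. Treatment began at 10 weeks of age and ran for 6 weeks. The labels describe male animals on the BKS background, while their strain field reads C57BL/6J, and whether animals were pooled for a library is not stated. They name 2 sequencing sites without saying which libraries went to which, and they do not say what the name form stands for, so a site, a date or a round of glomerular isolation cannot be told apart from it.

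A glomerulus is a tuft of fenestrated capillaries covered by podocytes and held together by mesangial cells. It is fed by an afferent arteriole and drained by an efferent one, whose walls are smooth muscle, and the macula densa and nearby thick ascending limb touch its vascular pole. Proximal tubule leaves it at the urinary pole, and distal convoluted tubule, connecting tubule and collecting duct lie in the surrounding cortex. Isolated glomeruli can therefore carry stubs of arteriole and fragments of tubule. Levels of marker genes of each structure are described below, and the amount of a structure in a library was not measured. In bulk RNA, fewer cells of a type and less RNA per cell cannot be told apart.

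Total counts per library ran from 35369703 to 40146145 in group-tag and from 39390950 to 44244460 in S-number libraries. The forms thus overlapped, with the highest totals in S-number and the lowest in group-tag libraries. Every library had a high level of the podocyte gene Nphs1 (nephrin, 1177.7 to 1566.9 counts scaled to library size, CPM). Libraries are named below by group and number. Against the male label, db/db puerarin 2 and 3, both group-tag, had Xist, which coats the silenced X chromosome, at 528.5 and 819.0 CPM, where the other 9 libraries had 0.519 to 6.47 CPM. Their Ddx3y, a Y-linked gene, was at 3.06 and 0.909 CPM against 50.3 to 85.2 CPM elsewhere. Results are therefore also given without these 2 libraries. That leaves S144 alone in db/db puerarin. With group as a covariate, the difference between forms then rests on the vehicle libraries only, with fewer libraries to test it. Db/m vehicle S184 and S185 stood apart from all others in a few genes, for example AA465934 (0.508 and 0.633 CPM against 15.6 to 26.4 CPM), and db/db vehicle 1 had the highest level of myeloid genes.

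Across 13734 genes fitted together with edgeR's quasi-likelihood test, with group as a covariate, 957 genes (6.97%) differed between the name forms at a Benjamini-Hochberg adjusted p below 0.05. Of these, 776 (5.65%) were higher and 181 (1.32%) lower in group-tag libraries. The 6 group-tag libraries all lay above the 5 S-number libraries in 705 genes (5.13%) and all below in 217 (1.58%). The median log2 difference over all genes was -0.02, with 6352 genes positive and 7382 negative. Genes of 1 cell type can vary together, so the signs within a list are not independent. With vehicle libraries only, 77 genes were higher and 4 lower in group-tag libraries. Without db/db puerarin 2 and 3 the count of calls was 81 (0.59%), of which 80 were among the 957, and all 957 kept their sign.

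Smooth muscle contractile genes were higher in group-tag libraries. Of 23 measured members of the vascular smooth muscle list, 11 were higher and 0 lower, against 5.65% and 1.32% of all genes, and 10 of the 11 had no overlap between the forms (5.13% of all genes). The median log2 difference over the 23 members was 0.51, and it was 0.56 within db/m vehicle, 0.47 within db/db vehicle and 0.52 within db/db puerarin. The members that differed included the actin, the myosin heavy chain and the actin-binding proteins of the contractile apparatus. Without db/db puerarin 2 and 3, 9 of the 23 were higher and the median was 0.45.

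Serum response factor is the transcription factor that drives many contractile genes from the CArG box, a 10-base site, and 4 promoters of muscle genes that were higher are shown as examples, chosen after the box had been searched. They are Acta2, the gene of smallest p, which has no perfect match to the consensus, and 3 genes that have one. Each run is the 250 bases before the RefSeq transcription start in build GRCm38.p6, read 5′ to 3′ on the gene's strand, with a CArG box in capitals.
Acta2 (chr19:34255374-34255623, minus strand): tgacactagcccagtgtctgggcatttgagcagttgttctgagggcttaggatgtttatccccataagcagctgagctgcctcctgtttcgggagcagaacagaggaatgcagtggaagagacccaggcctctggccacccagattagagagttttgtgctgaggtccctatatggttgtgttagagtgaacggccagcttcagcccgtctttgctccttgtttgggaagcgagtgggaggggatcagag
Ldb3 (chr14:34588682-34588931, minus strand): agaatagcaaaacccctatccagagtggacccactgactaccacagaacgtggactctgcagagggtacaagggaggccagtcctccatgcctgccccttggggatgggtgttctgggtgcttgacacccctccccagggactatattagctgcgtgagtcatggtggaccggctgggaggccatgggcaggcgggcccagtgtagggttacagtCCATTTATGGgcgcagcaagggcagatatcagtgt
Asb2 (chr12:103356002-103356251, minus strand): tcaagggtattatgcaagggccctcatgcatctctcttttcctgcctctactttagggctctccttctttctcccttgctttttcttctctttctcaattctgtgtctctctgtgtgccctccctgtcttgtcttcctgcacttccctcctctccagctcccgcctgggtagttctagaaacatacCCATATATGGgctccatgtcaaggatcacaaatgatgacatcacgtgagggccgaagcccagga
Myom1 (chr17:71019307-71019556, plus strand): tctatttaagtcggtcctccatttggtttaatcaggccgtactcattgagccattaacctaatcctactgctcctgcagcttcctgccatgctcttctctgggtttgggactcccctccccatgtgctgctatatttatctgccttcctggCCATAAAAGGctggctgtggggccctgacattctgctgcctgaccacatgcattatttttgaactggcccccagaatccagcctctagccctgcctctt

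The box begins 35 bases before the start in Ldb3, 64 bases before it in Asb2 and 99 bases before it in Myom1, and the Acta2 window holds no perfect match. A second annotated start of Asb2 has no box. The consensus was searched on both strands of windows from 250 bases before to 50 bases after each start, and it is its own reverse complement. It was present in 535 of all 32851 windows (1.63%), and in 164 of the 10615 measured genes that had a window (1.54%). Among smooth muscle genes it was found in 2 of 17 (Ldb3 and Myl9), and among those that differed in 1 of 8. Near matches were not counted, such as ccctatatgg and ccttgtttgg in the Acta2 window. Acta2, Cnn1, Lmod1, Tpm2, Pln, Kcnmb1 and Mustn1 had no perfect match, nor had Myh6 and Cacna1c outside the list. Of the genes that were higher in group-tag libraries, 11 of 592 (1.86%) had one. Of those that were lower, 6 of 143 (4.2%) had one, and of the immediate early genes 1 of 14 (7.14%). A match describes letters in the window and no more.

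Acta2 (chr19:34240336-34255373, build mm10) encodes smooth muscle alpha actin. Its level in the 6 group-tag libraries ran from 141.9 to 309.5 CPM with a median of 201.4 CPM. In the S-number libraries it was 61.0 CPM in db/m vehicle S184, 60.2 CPM in S185, 48.1 CPM in db/db vehicle S152, 50.4 CPM in S153 and 81.8 CPM in db/db puerarin S144. The lowest group-tag library, db/db vehicle 3, was above the highest S-number library. The mean was 214.0 ± 57.6 CPM (SD, n = 6) against 60.3 ± 13.3 CPM (SD, n = 5), a log2 difference of 1.74 ± 0.091 (SE; edgeR adjusted p = 3.71e-05). The difference was 1.73 within db/m vehicle, 1.72 within db/db vehicle and 1.75 within db/db puerarin. These 3 values lie close together.

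Myh11 (chr16:14194527-14291408), the smooth muscle myosin heavy chain, ran from 265.1 to 553.1 CPM in group-tag libraries (median 401.7) and was at 102.6, 89.4, 55.8, 66.9 and 79.0 CPM in S184, S185, S152, S153 and S144. Its log2 difference was 2.32 ± 0.13 (SE; edgeR adjusted p = 4.09e-05), with no overlap. Tagln (chr9:45929628-45936058), transgelin, an actin cross-linking protein of smooth muscle, ran from 87.9 to 150.2 CPM (median 109.5) against 46.4, 46.2, 39.0, 48.7 and 63.2 CPM in the same order, a log2 difference of 1.20 ± 0.081 (SE; edgeR adjusted p = 0.000112). Both were lowest in db/db vehicle 3 among the group-tag libraries and highest in db/db puerarin 3.

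Cnn1 (chr9:22099253-22109221), calponin 1, a marker of differentiated contractile smooth muscle, had the largest log2 difference of the list, 3.29 ± 0.29 (SE; edgeR adjusted p = 0.000509). Its level ran from 5.84 to 11.6 CPM in group-tag libraries (median 8.83), and 1.14, 0.587, 0.715, 1.32 and 0.597 CPM in S184, S185, S152, S153 and S144. Every listed transcript had reached a count of 100 in some column. A gene as low as Cnn1 in S-number libraries may be listed only through its group-tag levels, so its large difference is open to that selection. Ldb3 (chr14:34526699-34588681), a Z-disc and dense-body adaptor, was at 25.9 to 44.9 CPM (median 39.2) against 9.80, 8.79, 6.94, 6.35 and 8.27 CPM, a log2 difference of 2.16 ± 0.15 (SE; edgeR adjusted p = 0.000112). The remaining 6 members that were higher, named after their values were seen, were Pln (1.38), Lmod1 (1.25), Map3k7cl (1.05), Tpm2 (1.04), Kcnmb1 (0.94) and Mustn1 (0.51, the one with overlap), as log2 differences. Pln encodes phospholamban, Lmod1 an actin filament nucleator of smooth muscle, Tpm2 a tropomyosin and Kcnmb1 the smooth muscle subunit of the large-conductance potassium channel.

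Not all contractile genes differed. Mylk, myosin light chain kinase, had a log2 difference of -0.03 (edgeR adjusted p = 0.847), Des, desmin, -0.19 (adjusted p = 0.58), and Myl9, a regulatory myosin light chain, 0.35 (adjusted p = 0.105). Myocd, the cofactor of serum response factor, was at 2.5 to 5.79 CPM in group-tag and 1.83 to 4.34 CPM in S-number libraries, with a log2 difference of 0.52 ± 0.24 (SE; adjusted p = 0.198). Of the 23 members, 17 were higher and 2 lower in group-tag libraries within all 3 groups. As a list level, the mean over members of log2 CPM less each gene's mean over the 11 libraries, smooth muscle was -0.01 to 0.69 in group-tag and -0.66 to -0.25 in S-number libraries.

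**Figure D1:**
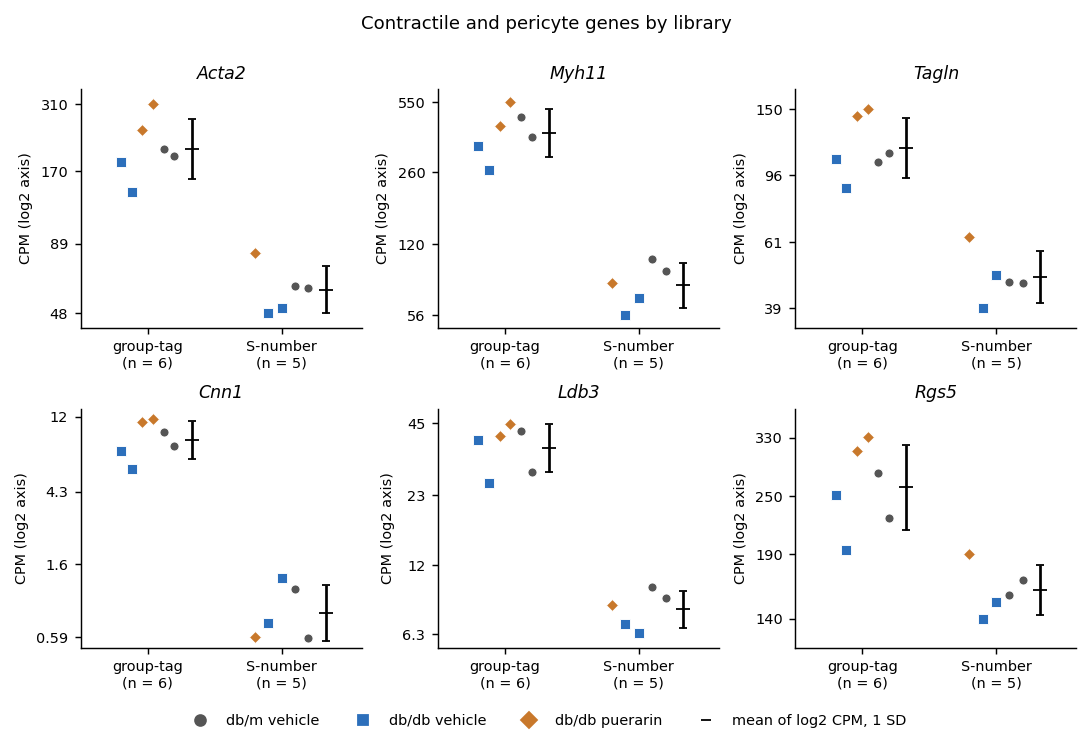
Level of 5 contractile genes and the pericyte gene Rgs5 in each library (CPM, log2 axis), by name form, with marker shape and colour for group and the mean of log2 CPM with 1 SD beside the points. In each of the 6 genes every group-tag library lies above every S-number library, for Acta2 141.9 to 309.5 against 48.1 to 81.8 CPM.

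Among the 12 genes of smallest p that were higher in group-tag libraries within all 3 groups, 5 belonged to the smooth muscle list and several others were muscle genes outside it. Xirp1, an actin-binding protein of cell junctions in muscle, was at 2.77 to 4.47 CPM (median 3.6) against 0.533, 0.723, 0.485, 0.57 and 0.689 CPM in S184, S185, S152, S153 and S144, a log2 difference of 2.58 ± 0.18 (SE; edgeR adjusted p = 0.000112). Asb2, a ubiquitin ligase adaptor of muscle filamins, was at 6.22 to 10.3 CPM against 1.19 to 2.18 CPM (2.15), and Myom1, an M-band protein, at 46.7 to 75.9 CPM against 22.3 to 39.0 CPM (0.93). Cacna1c, the pore of the L-type calcium channel that opens for contraction, was at 77.8 to 128.1 CPM against 40.6 to 58.1 CPM (1.15). None of these 4 genes had overlapping forms. Xirp1 and Asb2, like Cnn1, were low enough in S-number libraries that they may be listed only through group-tag libraries.

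Myh6, the alpha myosin heavy chain of heart muscle, was also higher, at 9.37 to 32.6 CPM (median 23.2) against 5.74, 5.42, 3.32, 3.16 and 2.83 CPM in S184, S185, S152, S153 and S144, with a log2 difference of 2.32 ± 0.20 (SE; edgeR adjusted p = 0.000478). It was the only one of 7 measured striated muscle genes that passed, where 5.65% of all genes were higher. Myh1, Myh2 and Myh4, myosins of skeletal muscle, had log2 differences of -0.16, -0.05 and -0.04, Myh7 0.26, Tnnt2 -0.11 and Actc1 -0.30, and the list median was -0.05. Plin4, a lipid droplet coat protein, was at 4.63 to 7.66 CPM against 0.711 to 1.63 CPM (log2 difference 2.54 ± 0.20, SE; edgeR adjusted p = 0.000236), while Fabp4, the other measured gene of the adipocyte list, had a log2 difference of 0.08. The other 7 of 9 adipocyte genes were not among the listed transcripts, each of which had reached a count of 100 in some column. Plin4, low in S-number libraries, may itself be listed only through group-tag libraries.

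The 12 genes of that group, Esm1 and Avpr2 stayed below an adjusted p of 0.05 in all 26 other settings examined. Over those settings the log2 difference was 1.69 to 1.83 for Acta2, 2.20 to 2.44 for Myh11, 2.80 to 3.55 for Cnn1 and 2.02 to 2.47 for Myh6, and 8 to 13 smooth muscle genes were called. The 26 settings overlap. The fit without a filter equals the main fit, as the filter took out 0 genes. The stricter filter, a count of at least 50 in 5 libraries, can be met by group-tag libraries alone. The fits with vehicle libraries only, without db/db puerarin 2 and 3 and without S144 draw the difference from the same vehicle libraries. A count of settings kept is therefore no count of independent checks.

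Genes of the vessel wall matrix were partly higher. Of 10 measured, 3 were higher and 0 lower, against 5.65% and 1.32% of all genes, with a median log2 difference of 0.05. Lox, lysyl oxidase, which cross-links elastin and collagen, was at 14.4 to 29.3 CPM (median 21.4) against 7.19, 12.7, 7.96, 7.62 and 7.15 CPM in S184, S185, S152, S153 and S144, with no overlap (log2 difference 1.29 ± 0.20, SE; edgeR adjusted p = 0.00856). Eln, elastin, was at 31.1 to 53.6 CPM against 13.0 to 34.9 CPM (log2 difference 0.88), and Fbln2, fibulin 2, at 48.8 to 91.3 CPM against 31.0 to 57.2 CPM (0.56). Both of these overlapped. Eln kept its call in 25 of 26 other settings, Lox in 24 and Fbln2 in 17. Among vehicle libraries alone 1 of the 10 was higher, Eln (edgeR adjusted p = 0.0289), when 77 of all genes were. Col8a1, a collagen of the vessel wall, had a log2 difference of -0.48 and Emilin1, an elastic fibre glycoprotein, -0.34, neither below an adjusted p of 0.05. In the fibroblast and adventitia list 1 of 10 was higher, Col3a1 (3.53 to 4.67 CPM against 2.54 to 3.63 CPM, log2 difference 0.48, edgeR adjusted p = 0.0402), and the median was -0.02. Col3a1 kept its call in 10 of 26 other settings.

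Most pericyte and mesangial genes did not follow the contractile genes. In the pericyte list 2 of 10 were higher (5.65% of all genes), Rgs5, a regulator of G-protein signalling, and Cox4i2, a cytochrome c oxidase subunit, and the median was -0.13. Rgs5 was at 193.8 to 330.6 CPM (median 265.3) against 156.7, 168.5, 139.5, 151.7 and 190.4 CPM in S184, S185, S152, S153 and S144, a log2 difference of 0.66 ± 0.089 (SE; edgeR adjusted p = 0.00483). Rgs5 kept its call in 23 of 26 other settings and Cox4i2 in 18. Of the 10, 0 passed without db/db puerarin 2 and 3 (edgeR adjusted p = 0.0561 for Rgs5 and 0.118 for Cox4i2). Pdgfrb, the receptor that marks pericytes and mesangial cells, had a log2 difference of -0.16 ± 0.26 (SE; adjusted p = 0.723). All 10 measured mesangial genes had a negative difference, with a median of -0.44. Of them, 2 were below an adjusted p of 0.05, where 1.32% of all genes were lower. Over the 26 other settings 0 to 7 were lower, and each of the 2 kept its call in 13. They were Serpine2, a protease inhibitor (176.8 to 460.9 CPM against 280.6 to 685.5 CPM, log2 difference -0.73, edgeR adjusted p = 0.0247), and Fhl2, a LIM-domain cofactor (91.8 to 158.4 CPM against 156.2 to 206.4 CPM, -0.56, adjusted p = 0.0364). Itga8, the integrin subunit that defines mesangial cells, was at 277.9 to 632.7 CPM against 434.6 to 637.3 CPM, with a log2 difference of -0.45 ± 0.21 (SE; adjusted p = 0.208).

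The juxtaglomerular list had 3 genes and 0 calls. Ren1, renin, made by granular cells of the afferent arteriole, was at 130.4 and 155.2 CPM in db/m vehicle 2 and 3 against 331.2 and 236.5 CPM in S184 and S185, and at 212.2 and 84.5 CPM in db/db vehicle 1 and 3 against 76.2 and 97.9 CPM in S152 and S153. The difference thus pointed down within db/m vehicle (-0.98) and up within db/db vehicle (0.63). Overall it was -0.14 ± 0.33 (SE; edgeR adjusted p = 0.817).

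**Figure D2:**
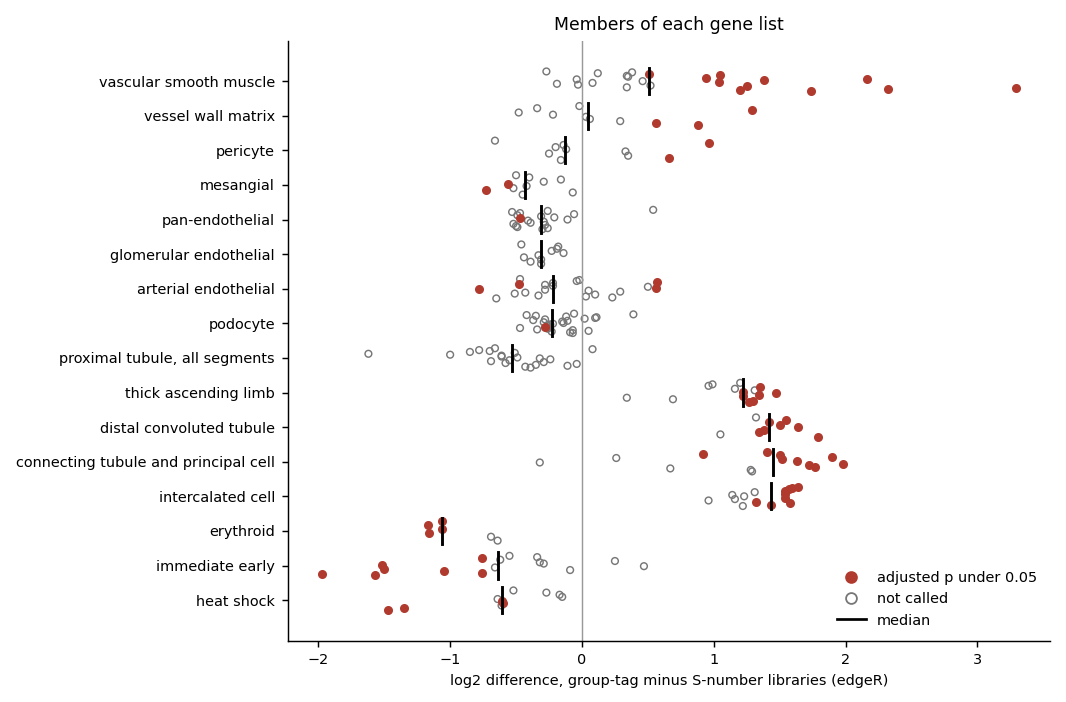
Log2 difference between group-tag and S-number libraries for each member of 16 gene lists (points), filled where the edgeR adjusted p is below 0.05, with the list median as a bar. Filled points lie to the right for smooth muscle (11 of 23) and for the 4 distal nephron lists, and to the left for erythroid, immediate early and heat shock genes.

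Few endothelial genes passed. Over the 5 endothelial lists, which hold 61 genes, 2 were higher and 3 lower, against 5.65% and 1.32% of all genes, and 11 had a positive difference, with a median of -0.28. Of the 61, 0 passed among vehicle libraries alone, when the median was -0.22. Those are the libraries the difference rests on without db/db puerarin 2 and 3, when the median was -0.21. Of 19 pan-endothelial genes 18 had a negative difference (median -0.31) and 1 passed, Eng, endoglin, a co-receptor for transforming growth factor beta. Eng was at 639.1 to 1010.4 CPM (median 925.1) against 891.2, 1075.7, 1281.5, 1217.4 and 1405.5 CPM in S184, S185, S152, S153 and S144, a log2 difference of -0.47 ± 0.12 (SE; edgeR adjusted p = 0.0468), and it kept its call in 10 of 26 other settings. Pecam1, an adhesion molecule of all endothelium, was at 1016.3 to 1578.7 CPM against 1405.0 to 1849.5 CPM (log2 difference -0.30 ± 0.13, SE; adjusted p = 0.191). The forms overlapped in both genes. Vwf, von Willebrand factor, was the 1 gene with a positive difference (0.54, adjusted p = 0.101).

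All 10 measured genes of glomerular endothelium had a negative difference and 0 passed, with a median of -0.31. Ehd3, a membrane-trafficking protein enriched in glomerular capillaries, was at 606.4 to 1404.3 CPM against 1009.2 to 1613.7 CPM (log2 difference -0.31 ± 0.20, SE; edgeR adjusted p = 0.358). All 7 peritubular and venous genes were negative too, with 0 calls and a median of -0.22. Plvap, the diaphragm protein of peritubular fenestrae, had a log2 difference of -0.30 (adjusted p = 0.382). In the lymphatic list of 4 genes 0 passed and the median was -0.17, with Flt4, the receptor for lymphatic growth factors, at -0.42 (adjusted p = 0.109).

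Arterial endothelial genes went both ways. Of 21 measured, 2 were higher and 2 lower, against 5.65% and 1.32% of all genes, and the median was -0.22. Jag1, a Notch ligand of arterial walls, was at 36.1 to 51.8 CPM (median 40.1) against 23.5, 30.1, 27.4, 25.9 and 30.6 CPM in S184, S185, S152, S153 and S144, with no overlap (log2 difference 0.57 ± 0.098, SE; edgeR adjusted p = 0.0134). It kept its call in 20 of 26 other settings. Fbln2, given above, was the other. Alox12, a lipoxygenase, was at 21.8 to 39.8 CPM (median 31.5) against 54.0, 63.0, 50.3, 49.5 and 52.1 CPM, also without overlap (log2 difference -0.78 ± 0.12, SE; adjusted p = 0.00891), and Tm4sf1, named after its value was seen, was at -0.48 (adjusted p = 0.0289). Gja5, connexin 40 of arterial endothelium and renin cells, was at 120.1 to 285.9 CPM against 263.6 to 357.4 CPM (log2 difference -0.65 ± 0.21, SE; adjusted p = 0.0933), and did not pass.

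Esm1 (chr13:113209659-113218104), endocan, a proteoglycan secreted by endothelium, was the lower gene of smallest p, and it was in none of the lists. It was at 5.95 to 13.2 CPM in group-tag libraries and at 45.4 CPM in S184, 45.1 CPM in S185, 24.6 CPM in S152, 26.0 CPM in S153 and 28.7 CPM in S144. The lowest S-number library was above the highest group-tag library. The log2 difference was -1.76 ± 0.14 (SE; edgeR adjusted p = 0.000318), and -2.03, -1.84 and -1.18 within db/m vehicle, db/db vehicle and db/db puerarin. Myct1, a membrane protein of endothelium, followed with -0.78 (21.1 to 43.3 CPM against 38.5 to 58.3 CPM, adjusted p = 0.0055). It lost its call in 1 of 26 other settings.

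The rest of the 12 lower genes of smallest p had small differences, with Stmn3 as the exception. Stmn3, a microtubule-destabilising protein of neurons, had a log2 difference of -1.47 at no more than 1.13 CPM in group-tag and 1.55 to 2.99 CPM in S-number libraries. Prickle2, a planar polarity protein, had -0.66, Ntn4, a basement membrane netrin, -0.67, Plac8 -0.76, Rora, a nuclear receptor, -0.57, Mthfd1l, a mitochondrial folate enzyme, -0.52, Cd302 -0.50, Man1a, a Golgi mannosidase, -0.48, and Plscr2, a phospholipid scramblase, -0.43. Their edgeR adjusted p-values ran from 0.00891 for Cd302 to 0.0139 for Plac8. Among vehicle libraries alone, Plscr2 passed (edgeR adjusted p = 0.0434). The others, Stmn3 included, did not, with adjusted p from 0.0599 for Stmn3 to 0.0978 for Rora.

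Among genes of vascular tone, 1 of 20 in the vasoactive and shear response list was higher and 1 lower, against 5.65% and 1.32% of all genes. In 19 the difference was negative (median -0.27), and 0 passed without db/db puerarin 2 and 3. Ednrb, the endothelin B receptor, was at 62.3 and 59.1 CPM in db/m vehicle 2 and 3 against 89.8 and 115.7 CPM in S184 and S185, at 150.3 and 92.3 CPM in db/db vehicle 1 and 3 against 181.8 and 238.5 CPM in S152 and S153, and at 99.0 and 154.5 CPM in db/db puerarin 2 and 3 against 224.6 CPM in S144. Its levels overlapped between forms across groups but not within any group, and the log2 difference was -0.79 ± 0.16 (SE; edgeR adjusted p = 0.0209), a call kept in 16 of 26 other settings. Ptgis, prostacyclin synthase, was higher, at 10.2 to 17.9 CPM against 6.55 to 11.2 CPM (0.67 ± 0.16, SE; adjusted p = 0.0387). Of 28 podocyte genes 0 were higher, 1 was lower and the median was -0.22, with Nphs1 at -0.07 (edgeR adjusted p = 0.66). The 1 that passed was Foxc2, a forkhead factor (-0.28, adjusted p = 0.0461).

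The number of lower endothelial genes depended on the libraries included. Without db/db vehicle 1, in which myeloid genes were highest, 22 of the 61 endothelial genes were lower, when 558 of all genes (4.06%) were lower, and the median was -0.36. The number lower was 8 without S184, when 371 of all genes were lower. It was 1 or 2 without any other single library. In those fits the number lower over all genes ran from 9 (without S144) to 124 (without db/db puerarin 2).

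**Figure D3:**
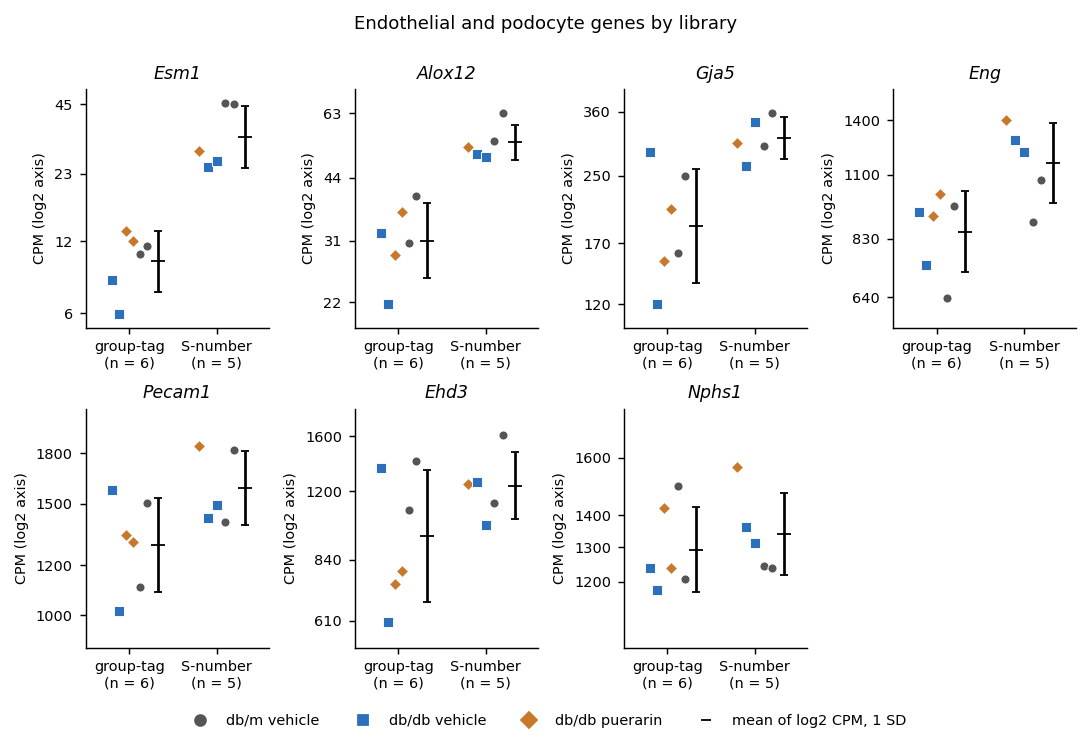
Level of 6 endothelial genes and the podocyte gene Nphs1 in each library (CPM, log2 axis), by name form, with marker shape and colour for group and the mean of log2 CPM with 1 SD beside the points. Esm1 and Alox12 show no overlap between the forms, while Pecam1, Ehd3 and Nphs1 overlap.

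Genes of the distal nephron were higher in group-tag libraries, by more than the smooth muscle list as a whole but with a wide spread between libraries. The lists of thick ascending limb, distal convoluted tubule, connecting tubule and principal cell, and intercalated cell hold 51 genes, of which 31 were higher and 0 lower, against 5.65% and 1.32% of all genes, and 50 had a positive difference. The median log2 difference was 1.22 in the thick ascending limb list (7 of 14 higher), 1.42 in the distal convoluted tubule list (7 of 9), 1.45 in the connecting tubule and principal cell list (9 of 14) and 1.43 in the intercalated cell list (9 of 15). The forms did not overlap in 9, 6, 9 and 10 of these genes, against 5.13% of all genes.

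In the thick ascending limb, which reabsorbs salt without water, Umod (chr7:119462708-119479262), uromodulin, the most abundant urinary protein, was at 1850.6 to 3562.1 CPM in group-tag libraries (median 2927.1). In S-number libraries it was 2072.1 CPM in S184, 892.1 CPM in S185, 1423.4 CPM in S152, 1846.3 CPM in S153 and 472.4 CPM in S144. S184 overlapped the group-tag range and S144 was far below it, and the log2 difference was 1.27 ± 0.32 (SE; edgeR adjusted p = 0.0422). Slc12a1, the sodium-potassium-chloride cotransporter NKCC2, was at 547.6 to 980.4 CPM (median 739.0) against 348.2, 203.6, 521.7, 444.7 and 134.8 CPM in S184, S185, S152, S153 and S144 (1.30 ± 0.31, SE; adjusted p = 0.0357). Egf, the epidermal growth factor precursor, was at 2080.0 to 3566.0 CPM against 636.7 to 2048.5 CPM (1.22 ± 0.21, SE; adjusted p = 0.0133). Tmem72 (1.35) and Cldn19, a tight junction protein (1.22), also passed. In the macula densa list of 3, 0 passed, with a median of 0.51.

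In the distal convoluted tubule, the site of thiazide action, Slc12a3 (chr8:94329208-94366221), the thiazide-sensitive sodium-chloride cotransporter, was at 1062.7 to 3061.2 CPM (median 1374.2) against 940.1, 303.8, 494.9, 650.9 and 191.5 CPM in S184, S185, S152, S153 and S144. The forms did not overlap, and the log2 difference was 1.79 ± 0.39 (SE; edgeR adjusted p = 0.0275). Wnk4, the kinase that controls this transporter, was at 99.3 to 219.4 CPM against 23.6 to 62.3 CPM (1.64), and Emx1, a homeobox factor, at 40.8 to 76.5 CPM against 7.63 to 33.4 CPM (1.55).

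In the connecting tubule and collecting duct, Avpr2 (chrX:73892102-73894428), the vasopressin V2 receptor, was at 15.2 to 23.3 CPM (median 17.8) against 5.71, 3.14, 6.25, 5.73 and 2.85 CPM in S184, S185, S152, S153 and S144. Its log2 difference was 1.98 ± 0.23 (SE; edgeR adjusted p = 0.00245), 1.88, 1.56 and 2.92 within db/m vehicle, db/db vehicle and db/db puerarin. Kcne1, a potassium channel subunit, had 1.90 and Scnn1g, the gamma subunit of the epithelial sodium channel, 1.72. Aqp2, the vasopressin-regulated water channel, was at 131.3 to 323.5 CPM against 119.7, 52.9, 110.7, 110.1 and 24.8 CPM. It had no overlap either, but its adjusted p was 0.0915 (1.29 ± 0.42, SE). Fxyd4, a regulator of the sodium pump named after its value was seen, was the 1 gene of the 4 lists with a negative difference (-0.32, adjusted p = 0.0873).

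Among intercalated cell genes, Rhcg, an ammonia channel, was at 99.8 to 207.4 CPM (median 115.4) against 60.6, 28.6, 61.0, 69.9 and 18.8 CPM in S184, S185, S152, S153 and S144 (log2 difference 1.64 ± 0.30, SE; edgeR adjusted p = 0.017). Insrr, an alkali-sensing receptor of base-secreting cells, had 1.54 and Atp6v1c2, a proton pump subunit, 1.32. Atp6v1g3, another proton pump subunit, was at 38.6 to 84.6 CPM against 6.82 to 40.1 CPM and did not pass (1.22 ± 0.44, SE; adjusted p = 0.121).

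The size of the distal difference was uneven over libraries and groups. Over the 4 lists together the library level (mean log2 CPM less each gene's mean) was 0.33 to 1.12 in group-tag libraries, highest in db/db vehicle 3, and -1.73, -1.35, -0.21, -0.12 and -0.16 in S144, S185, S152, S153 and S184. The S-number libraries thus fell into S144 and S185, far below the rest, and 3 libraries less than 1 log2 unit below the lowest group-tag library. The median difference of the thick ascending limb list was 1.12 within db/m vehicle, 0.66 within db/db vehicle and 2.40 within db/db puerarin, where S144 was the sole S-number library. Without db/db puerarin 2 and 3, 2 of the 51 genes were higher, when 81 of all genes (0.59%) passed in either direction, and the median was 1.06. Without S144 and S185, chosen after these levels were seen, 2 of 51 were higher, when 57 of all genes (0.415%) were, and the median was 0.82 with 49 of 51 positive.

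With 1 library left out, the number of distal genes called is given with the share of all genes that were higher in the same fit. It was 2 (1.12% of all genes) without S144, 7 (1.77%) without S152, 13 (2.97%) without S153, 44 (8.16%) without S184 and 5 (1.79%) without S185. It was 43 (8.98%) without db/db vehicle 1 and 5 (2.01%) without db/db vehicle 3. It was 16 (3.98%) or 17 (3.24%) without db/db puerarin 2 or 3, and without db/m vehicle 2 or 3 it was 14 (3.56%) or 7 (2.32%). The median log2 difference stayed between 1.05 and 1.65 in these 11 fits, with 49 or 50 of 51 positive. Avpr2 passed in each of them.

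Proximal tubule genes did not follow the distal ones. Of 38 genes in 3 proximal lists, 0 were higher and 0 lower, 5 had a positive difference and the median was -0.43. Slc34a1 (chr13:55399648-55414695), the sodium-phosphate cotransporter of the proximal brush border, was at 203.2 to 1067.5 CPM in group-tag libraries and 310.9 to 1086.7 CPM in S-number libraries, with a log2 difference of -0.11 ± 0.46 (SE; edgeR adjusted p = 0.903). Lrp2, megalin, the endocytic receptor, had -0.39 ± 0.50 (SE; adjusted p = 0.663). Kap, an androgen-regulated kidney protein, was at 22.7 to 652.5 CPM against 236.8 to 3031.3 CPM (-1.62 ± 0.60, SE; adjusted p = 0.128), lowest in db/db puerarin 2 and 3. Slc7a13, an amino acid transporter of the last proximal segment, was likewise lowest in these 2 libraries (5.47 and 1.19 CPM) and highest in S184 (102.6 CPM), with -1.12 (adjusted p = 0.123).

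The proximal difference changed sign between groups. The median over the 22 genes of all segments was -1.28 within db/m vehicle, -0.70 within db/db vehicle and 0.45 within db/db puerarin. The proximal level over the 38 genes was highest in S184 (1.30) and db/db vehicle 3 (0.91) and lowest in db/db vehicle 1 (-1.16), so both forms held high and low libraries. Without db/m vehicle S184 and S185, 27 of the 38 genes were positive and the median was 0.09.

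The balance of distal over proximal genes separated the forms, in a measure chosen after these values were seen and given with no test. The distal level less the proximal level was 0.72, 0.96, 1.48, 0.21, 1.10 and 0.51 in db/db puerarin 2 and 3, db/db vehicle 1 and 3, and db/m vehicle 2 and 3. It was -1.17, -0.37, -0.64, -1.45 and -1.34 in S144, S152, S153, S184 and S185. Every group-tag library had a positive balance and every S-number library a negative one. The distal level alone, given above, also separated the forms, so the balance is no separate result.

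**Figure D4:**
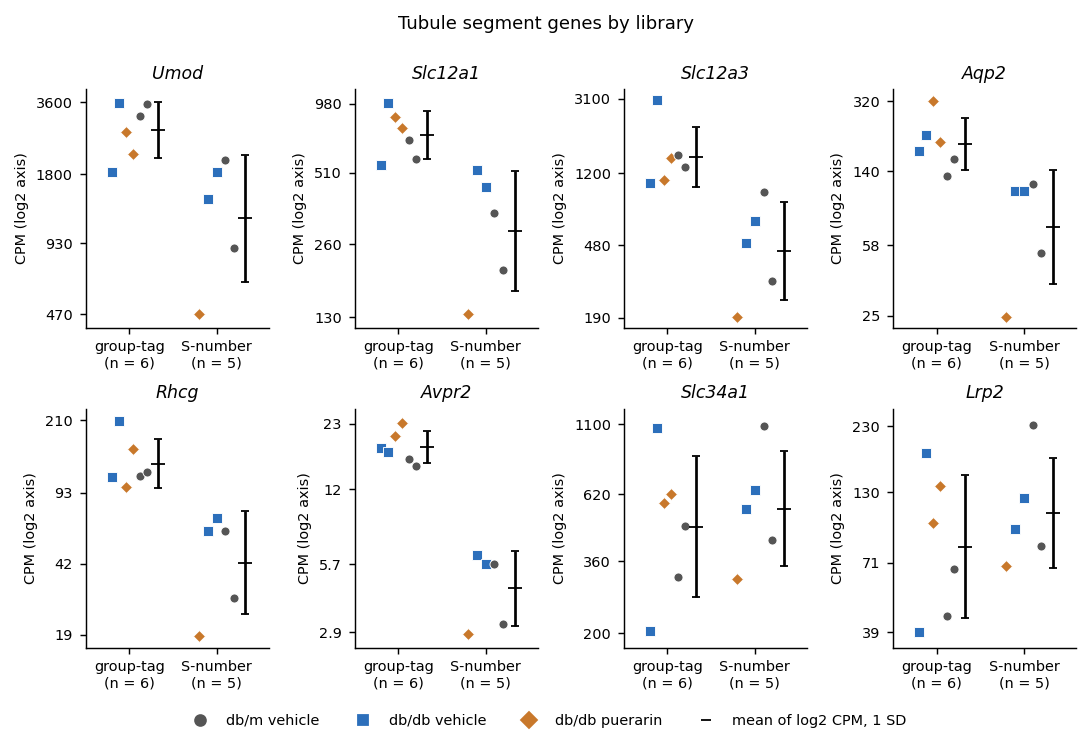
Level of 6 distal and 2 proximal tubule genes in each library (CPM, log2 axis), by name form, with marker shape and colour for group and the mean of log2 CPM with 1 SD beside the points. Db/db puerarin S144 is the lowest library in each of the 6 distal genes, and Slc34a1 and Lrp2 overlap over most of their range.

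The lists of other epithelial genes were short. In the thin limb list 2 of 8 were higher, against 5.65% of all genes. Corin, a natriuretic peptide-processing protease (1.27), was among them, and the list median was 0.06. In the parietal epithelial list 2 of 8 were higher, again against 5.65% of all genes. They were Pax2 (1.15) and Wfdc2 (1.35), both also expressed in distal tubule, while Cldn1, a junction protein of parietal cells, had -0.07. None of the 8 urothelial genes was among the listed transcripts. Of 2 nerve genes 1 was higher (5.65% of all genes were), Mbp, myelin basic protein (6.91 to 11.2 CPM in group-tag against 2.23 to 5.26 CPM in S-number libraries, log2 difference 1.10, edgeR adjusted p = 0.0256). In the myeloid list 0 of 18 passed, with a median of 0.53. The complement gene C1qc was at 86.2 CPM in db/db vehicle 1 and at 1.11 to 22.5 CPM in the other 10 libraries.

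Some blood and stress genes were lower in group-tag libraries (1.32% of all genes were). In the erythroid list 4 of 6 globin genes were lower, with no overlap in these 4 and a median of -1.06. Hbb-bs was at 2.47 to 6.91 CPM against 8.38, 13.2, 12.3, 7.05 and 10.5 CPM in S184, S185, S152, S153 and S144 (log2 difference -1.17 ± 0.28, SE; edgeR adjusted p = 0.0376). The 4 globin genes form 2 pairs with almost the same counts (Hbb-b2 with Hbb-bt, and Hbb-b1 with Hbb-bs) and so share their reads. In the immediate early list, the first genes transcribed after a stimulus, 7 of 16 were lower and the median was -0.64, against 1.32% of all genes. Fos was at 23.9 to 57.6 CPM (median 36.4) against 113.6, 40.1, 236.7, 100.3 and 131.2 CPM, with S185 inside the group-tag range (-1.57 ± 0.37, SE; adjusted p = 0.0354). Jun was at 116.9 to 210.3 CPM against 228.5 to 365.1 CPM with no overlap (-0.76, adjusted p = 0.0256).

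In the heat shock list 4 of 10 were lower and all 10 were negative, with a median of -0.60. Hspa1b, an inducible Hsp70, was at 20.2 to 72.4 CPM against 179.7, 99.4, 121.3, 72.9 and 133.5 CPM in S184, S185, S152, S153 and S144 (log2 difference -1.35 ± 0.30, SE; edgeR adjusted p = 0.0281), and its near-identical neighbour Hspa1a had -1.47. Without db/db puerarin 2 and 3 the medians were -0.70 for immediate early, -0.37 for heat shock and -0.89 for erythroid genes, and 0 members of the 3 lists passed. Over the 26 other settings, 0 to 9 immediate early, 0 to 6 heat shock and 0 to 4 erythroid genes were lower. These levels moved with the name form beside those of muscle and tubule, and their part in the other results was not tested.

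Whether the difference between forms itself differed between the 3 groups was tested by an interaction term, and 6 of 13734 genes (0.0437%) passed. None belonged to a vascular, muscle, endothelial or tubule list, and 515 genes had an unadjusted p below 0.05. S144 was the sole S-number library on puerarin, so an absence of calls does not show that the groups share the same difference. The 6 were AA465934, Fndc5, Wdfy1 and Zbtb16, low in db/m vehicle S184 and S185, and the Y-linked Kdm5d and Uty, low in db/db puerarin 2 and 3.

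**Figure D5:**
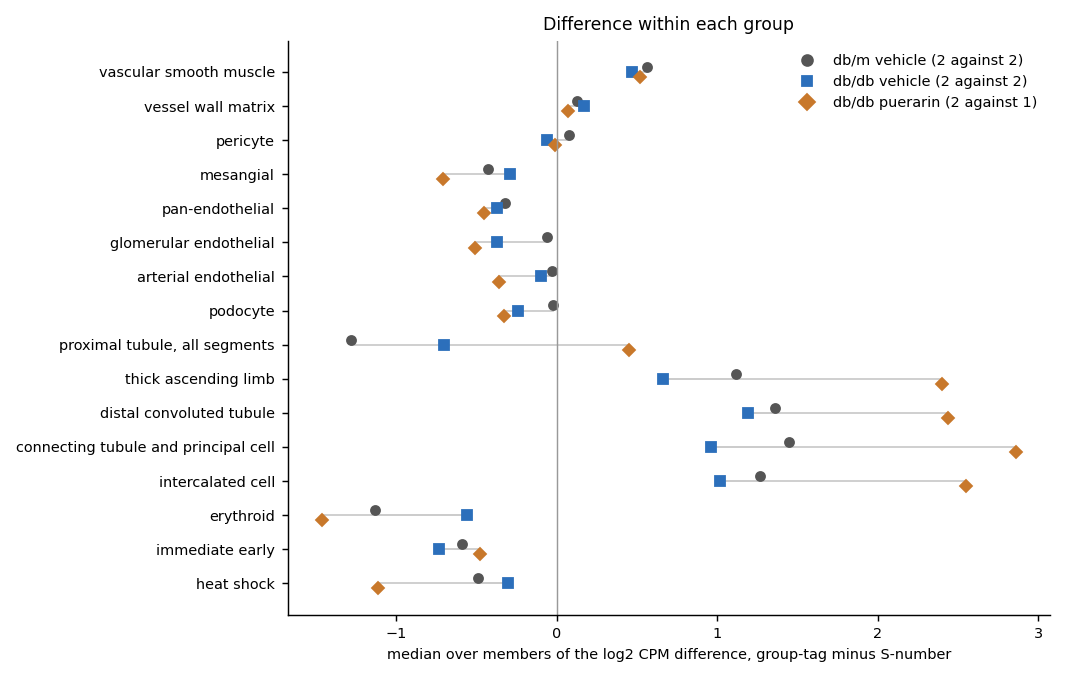
Median over list members of the log2 CPM difference between group-tag and S-number libraries within db/m vehicle, db/db vehicle and db/db puerarin (points by group). Smooth muscle lies at 0.56, 0.47 and 0.52, while the distal lists are largest within db/db puerarin and the proximal list changes sign.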

How the data were processed

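RNA from isolated glomeruli with an integrity value above 7.5 was sequenced, per the labels. The submitters' processing notes name BWA, limma and build mm10 without versions. The step from alignments to counts, including any use of strand, is not described in the sources used here. The authors deposited whole-number counts for 22320 RefSeq transcripts. The deposited log2 columns differ from log2 of these counts only by 1 offset for each library, and were not used further. Of the count columns, 4 matched no sample and were not used, 13 blank cells were taken as 0, and 50 transcripts with date-like symbols had their symbols restored from their identifiers.

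Transcripts were added up by symbol into 13734 genes, 4562 of them with several transcripts, so reads shared by transcripts can count repeatedly. CPM values use TMM factors (0.976 to 1.03). Group and name form were terms of edgeR's quasi-likelihood model (version 4.0.16, R 4.3.3), which had 7 residual and 3.14 prior degrees of freedom. The filter on low counts (1 or more in 3 libraries) took out 0 genes. P-values are two-sided with Benjamini-Hochberg adjustment over all genes, and SE is the log2 difference divided by the square root of F. Within-group differences are differences of mean log2 CPM (prior count 2). Where nothing says that libraries came from separate animals, p-values measure only the spread between these libraries, which may be technical. None of the 15 pairs of libraries within groups agreed within sampling noise. The code was tested on simulated data. Limma 3.58.1 (voom) and DESeq2 1.42.0 were alternatives. Promoter sequences are from RefSeq.

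The members, the 38 lists and 2 added ones (circadian clock, olfactory and taste receptors) were chosen with earlier results of these data known. Named genes were up to 12 per direction of smallest p with the same sign in all 3 groups (no Gm or Rik symbols), up to 3 called genes of smallest p per list (or 1 if none was called), and a set of segment and cell markers, 99 in all. Genes named beyond this were chosen after their values were seen. A few genes that this rule names are not reported here.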

Additional observations from a re-analysis of the deposited data

Results flagged for a closer look

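In 10 of 198 sets of 5 or 6 libraries of 1 gene and 1 name form, 1 library lay far from the others, and chance flags about 1 in 20 such sets. Lox was at 12.7 CPM in db/m vehicle S185, against 7.15 to 7.96 CPM in the other S-number libraries. Fbln2 was at 91.3 CPM in db/db puerarin 3, against 48.8 to 64.2 CPM in the other group-tag libraries. Db/db vehicle 3 had Slc12a3 at 3061.2 CPM (others 1062.7 to 1509.1), Tmem72 at 78.3 CPM (34.8 to 48.6) and Col3a1 at 3.53 CPM (4.25 to 4.67). C1qc was at 86.2 CPM in db/db vehicle 1, against 1.14 to 22.5 CPM. Among S-number libraries, Xist was at 1.43 CPM in S152 (0.678 to 0.873 in the others), Crip1 at 20.0 CPM in S144 (14.7 to 16), Plvap at 111.7 CPM in S153 (83.3 to 90.2) and Slc6a19 at 94.7 CPM in S184 (16.7 to 36.8).

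The difference between name forms itself differed between the 3 groups in 6 genes by edgeR's interaction term. AA465934 (adjusted p = 0.00335) had a log2 difference of 5.09 within db/m vehicle, -0.02 within db/db vehicle and 0.57 within db/db puerarin. Fndc5 (adjusted p = 0.0185) had 2.18, -0.27 and -0.45, Wdfy1 (adjusted p = 0.0254) 1.58, -0.14 and -0.13, and Zbtb16 (adjusted p = 0.0254) 3.48, 0.43 and -0.92, in the same order. The Y-linked Kdm5d (adjusted p = 0.0104) had 0.02, 0.08 and -3.01, and Uty (adjusted p = 0.0366) -0.37, -0.11 and -3.32.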

How the results depend on the processing

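The 957 genes that differed between name forms became 1885 with DESeq2 (1359 higher, 526 lower) and 341 without db/m vehicle S184 and S185. They became 81 with vehicle libraries only, the same libraries that carry the difference once db/db puerarin 2 and 3 are left out. Settings chosen after seeing the data gave 131 without both db/db vehicle 3 and S185, and 58 without both S144 and S185. With 1 library left out the count ran from 163 to 1791: 163 without S144, 274 without S152, 481 without S153, 1492 without S184, 274 without S185, 1791 without db/db vehicle 1, 317 without db/db vehicle 3, 670 and 497 without db/db puerarin 2 and 3, and 607 and 365 with db/m vehicle 2 or 3 left out. The cause was not tested. The other settings (RLE or upper quartile factors, library totals, filters, highest transcript per gene, limma voom, no group term, GC content offset) gave 907 to 1079. The 6 interaction genes became 1 with vehicle libraries only and 1 to 60 with 1 library left out, 60 without db/db vehicle 3 and 1 without S152, S153, db/db puerarin 3 or db/m vehicle 2. The interaction could not be fitted without S144, the sole S-number library on puerarin.

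Of 70 named genes that passed, 17 to 70 stayed below the threshold over the 26 settings, with no change of sign. Signs turned only in genes that had not passed. Without db/m vehicle S184 and S185 the log2 difference was 0.14 for Slc6a19, 0.31 for Lrp2, 0.36 for Ren1 and 0.42 for Slc34a1. With 1 library left out it ran from -0.94 to 0.04 for Lrp2 (positive without S184), from -0.48 to 0.04 for Ren1 (positive without S184 or db/m vehicle 2), from -0.63 to 0.26 for Slc34a1 (0.26 without S184, 0.13 if db/db vehicle 1 and 0.12 if db/m vehicle 2 was left out) and from -0.04 to 0.16 for Star (negative without db/db puerarin 2). No paired analysis was possible because the 2 name forms share no replicate number.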

Other observations

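Circadian clock genes, a list added after values were seen, had 1 of 20 higher and 5 lower, against 5.65% and 1.32% of all genes, with a median log2 difference of -0.44. None passed without db/db puerarin 2 and 3, and the median was -0.23. Cry1, a clock repressor, was at 6.14 to 7.78 CPM in group-tag libraries and at 7.54, 11.7, 21.9, 16.5 and 17.4 CPM in S184, S185, S152, S153 and S144 (log2 difference -1.08, edgeR adjusted p = 0.0174). The labels give no hour of collection. Of 8 olfactory and taste receptors, also added after values were seen, 2 were higher, with a median of 0.30. Olfr78, which vascular smooth muscle and renin cells are known to express, was at 7.28 to 12.5 CPM against 2.36 to 5.33 CPM (log2 difference 1.42, adjusted p = 0.00331), and Olfr558 at 7.80 to 13.6 CPM against 3.04 to 5.24 CPM (1.41, adjusted p = 0.00368). Neither overlapped between forms.

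Few genes of oxidative phosphorylation or of the ribosome passed. Of 89 oxidative phosphorylation genes 83 had a positive difference, 2 were higher (5.65% of all genes) and 0 lower, with a median of 0.24. Without db/db puerarin 2 and 3, 63 were positive, 0 passed and the median was 0.11, and over the 26 other settings the median ran from -0.04 to 0.38. Of 81 ribosomal protein genes 79 had a negative difference, 0 were higher and 3 lower (Rps3a1, Rps4x and Rps7; 1.32% of all genes), with a median of -0.16, and 0 passed without db/db puerarin 2 and 3. In the lists not described above, the results were 0 of 5 lymphocyte and 0 of 2 adrenal genes called, 0 of 5 sex-linked genes, 0 of 3 small noncoding RNAs, and 1 of 7 replication-dependent histone genes lower (Hist1h1c, log2 difference -0.57, adjusted p = 0.0171).

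The difference moved with GC content. In 5 bins of the 13561 genes with a GC value, from lowest to highest GC, the median log2 difference was -0.11, -0.07, -0.02, 0.03 and 0.07. The share of genes that were higher was 2.43% in the lowest and 9.51% in the highest bin, and the share that were lower 1.73% and 0.774%. With a GC content offset, chosen after seeing the data, 907 genes passed, of which 782 were among the 957, and the smooth muscle list had 12 calls and the 4 distal lists 31.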
